A study of Homo sapiens with 8 samples.

Results

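Most human genes can end their transcripts at more than 1 poly(A) site. Cleavage at a proximal site gives a short 3′ UTR, cleavage at a distal site gives a long one, and the machinery that cuts and adds the tail is recruited largely by a signal hexamer, AAUAAA or AUUAAA, shortly before the end. HNRNPC is a nuclear RNA-binding protein that binds runs of U and is known for covering U-rich stretches of transcripts, among them those of antisense Alu repeats. PABPC4 is a poly(A)-binding protein that coats poly(A) tails and shuttles between nucleus and cytoplasm. The genes described here are those in which 1 proximal site that no annotated transcript end marks was set against 1 annotated distal end. Each is a pair listed in all 3 tables of comparisons, with a proximal site named by a position and a distal site named by a transcript, in a gene with no other pair listed in all 3 tables. The rule used no measured difference. It gave 1173 pairs in 1173 genes, which is 25% of the 4692 pairs listed in all 3 tables and 44.4% of their 2639 genes.

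QuantSeq REV, which primes on poly(A) with oligo(dT) and reads the 3′ ends of RNA, was applied to MDA-MB-231, an established human cell line from a triple-negative breast cancer. The 8 libraries formed 4 groups of 2 replicates, and all cells carried dCas9-KRAB, a dead Cas9 fused to a repressor that lowers transcription of the gene its guide targets. Control cells carried a pair of non-targeting guides, HNRNPC knockdown (KD) cells a guide against HNRNPC with a non-targeting guide, PABPC4 KD cells a non-targeting guide with a guide against PABPC4, and double KD cells both targeting guides. Each KD was compared with the same control, so the 3 tables share the control libraries, and a deviation of the control would move all 3 values of a gene. The measurement is logAPAR: proximal use is divided by distal use, and the natural log is taken of that ratio's fold change in KD cells. Values below 0 stand for more distal site use. That means a longer 3′ UTR only where both sites lie in the same 3′ UTR, which could not be checked. The tables hold no values per library, so each value below is given with the standard error (SE) or the 95% interval recovered from its Wald p. These errors cover counting error and not the spread between replicates, and the depth per library is unknown. Transcripts of HNRNPC and PABPC4 are not among these genes, so the knockdowns could not be checked in them. The table called PABPC4 KD was assigned by elimination.

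Of the 1173 genes, 1161 were protein-coding in Gencode release 44 on hg38, 7 were pseudogenes (AC006001.3, AL049737.1, CENPBD1, FAM86DP, RPL12P38, RPLP0P2 and ZNF252P), 1 was a long non-coding RNA gene and 4 were not in that release. The genes lay on both strands, 570 on plus and 603 on minus. For 953 of them this was the only pair of the gene in each of the 3 tables. In the others a table held further pairs that were not in all 3. The distal end could be placed on hg38 for 1028 genes (87.6%). The number given for the proximal site fell inside its gene on hg38 for 126 of the 1169 annotated genes, so the proximal positions are in another build. They were not converted, and no sequence is shown for proximal sites.

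The placed distal ends had the letters of ordinary poly(A) sites. Within the last 40 nt, 702 (68.3%) held AATAAA and another 162 (15.8%) held ATTAAA, on the transcribed strand, against 32.7% for AATAAA and 40.9% for either hexamer among all 74652 distinct ends of protein-coding transcripts in release 44. The hexamer started a median of 23 nt before the end (quartiles 21 and 26). The remaining 164 ends (16%) held neither. A run of at least 5 T within the last 100 nt was present at 37.8% of the ends, against 26.4% of all ends. Neither feature was particular to these genes. The same kind of pair in genes with several pairs listed in all 3 tables had 535 distinct placed distal ends. Of those ends 62.2% held AATAAA, 14.8% ATTAAA alone and 38.1% a T run. Protein-coding transcripts supplied 89.4% of the distal ends, retained-intron transcripts 5.74% and transcripts subject to nonsense-mediated decay 2.63%. The representative (MANE Select) transcript of the gene supplied 64.3% of the ends, and 73.3% were the outermost protein-coding end. Where a stop codon was annotated (946 ends), the 3′ UTR measured a median of 2288 exonic nt up to the distal end (quartiles 1354 and 3658). The windows below show the last 30 nt before the distal end in 5 genes that shifted toward that end in double KD, with the signal hexamer in capitals (hg38, read 5′ to 3′ on the strand of the transcript).
KBTBD6 (chr13:41127569-41127598, minus): ggttaattataAATAAAactggtaccagaa
RRP7A (chr22:42508344-42508373, minus): tgtggatgttaAATAAAaatatgagaagaa
DSTYK (chr1:205142505-205142534, minus): tgctgtatAATAAAgatcacattaacgttt
KIAA2013 (chr1:11919591-11919620, minus): gtttttaAATAAAtatctttcaaactttca
P3H4 (chr17:41801947-41801976, minus): cAATAAAtgtttgttgttgaatgagtcata

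Within the same 30 nt, genes that shifted away from the distal end in double KD either held a hexamer (DDIT4, RPL23A and DAP3) or none (TSPAN3 and PPP1R37). In DAP3 a repeat of AAAT units fills most of the window and itself holds the hexamer, and only the copy nearest the end is marked. In PPP1R37 the last 14 nt were all A, and in TSPAN3 the A-rich stretch began just after the end.
DDIT4 (chr10:72276007-72276036, plus): acttttctAATAAAcatgtttgttaaaaca
RPL23A (chr17:28724330-28724359, plus): ccAATAAAggacaaggacttcagaggagta
DAP3 (chr1:155738981-155739010, plus): aaataaataaataaataaataaatAATAAA
PPP1R37 (chr19:45148048-45148077, plus): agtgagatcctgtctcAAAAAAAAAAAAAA
The capitals mark the hexamer, or the run of A in PPP1R37.

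Site switches were counted in each knockdown. At a deposited p of 0.01, 26 genes passed in HNRNPC KD (2.22%), 10 in PABPC4 KD (0.853%), against 63 in double KD (5.37%). The background over all pairs of each table was 2.08%, 0.756% and 4.33%. Among the 3519 other pairs listed in all 3 tables it was 2.59%, 0.938% and 6.05%. The share of single-pair genes called was therefore near that of other pairs in each table.

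**Figure D1:**
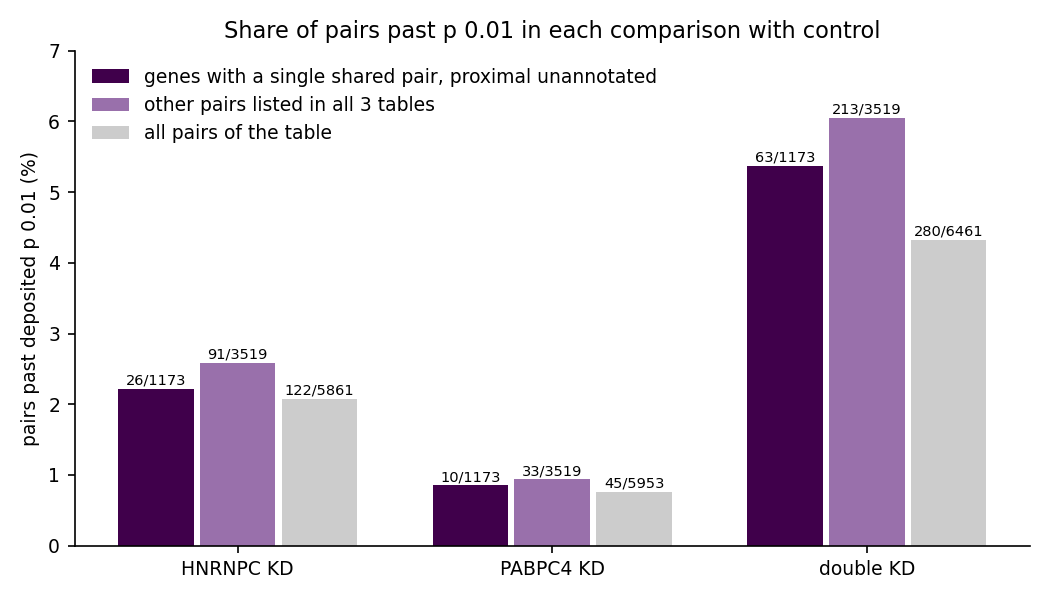
Bars give the percentage of pairs past the deposited p of 0.01 in each comparison with control, for the 1173 single-pair genes, for the other 3519 pairs listed in all 3 tables and for all pairs of each table, with counts above the bars. The single-pair genes (2.22%, 0.853% and 5.37%) lie between the other sets each time.

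Shifts went both ways. In HNRNPC KD 15 genes shifted toward the distal site and 11 toward the proximal site, against background shares of 1.14% and 0.938% of all pairs. In PABPC4 KD 2 shifted toward the distal and 8 toward the proximal site (background 0.336% and 0.42%). In double KD 35 shifted toward the distal and 28 toward the proximal site (background 2.48% and 1.86%). After adjustment over all pairs of a table, 5 genes passed an adjusted p of 0.05 in HNRNPC KD, 40 in double KD and 0 in PABPC4 KD, against 0.427%, 2.23% and 0.0168% of all pairs. The count of 0 comes from the deposited APAlog fit. In that fit 51 of the 1173 genes (4.35%) had an unadjusted p under 0.05, near the 4.03% of all pairs. The median logAPAR over the 1173 genes was −0.0216 in HNRNPC KD (0.00822 over all pairs), 0.00838 in PABPC4 KD (0.00989), against −0.028 in double KD (0.00853). The signs of these small medians depended on how they were taken. HNRNPC KD gave 0.0188 as an inverse-variance weighted mean, 0.00242 over genes with an SE below the table's median and 0.00745 over genes with 1 such pair in that table itself, and double KD gave 0.0166 by the last of these. Single genes ranged from −3.02 to 2.44, from −2.46 to 2.88 and from −3.03 to 3.31. The counting errors were large. The median SE was 0.662, 0.651 and 0.629, so that a gene of median precision needed an absolute logAPAR of 1.71, 1.68 or 1.62 to reach p 0.01.

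**Figure D2:**
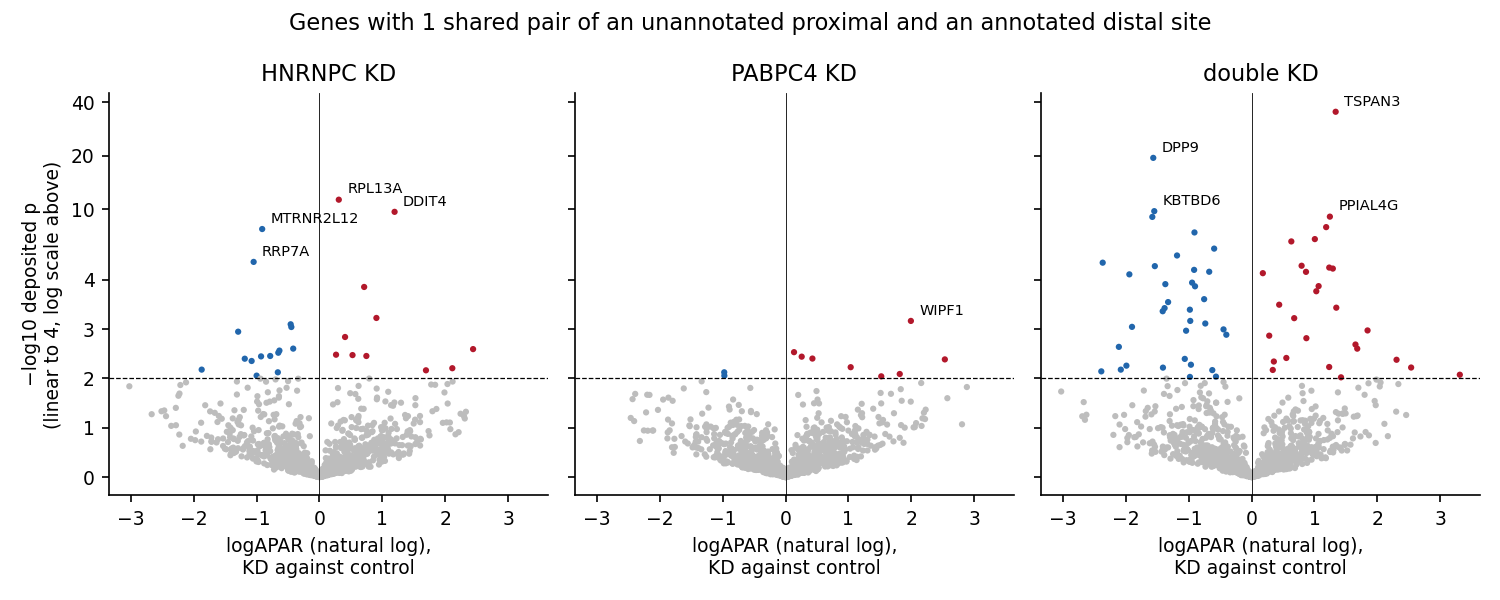
Each point is 1 of 1173 genes, with logAPAR on the x axis and −log10 of the deposited p on the y axis (linear to 4, log scale above), in panels for HNRNPC KD, PABPC4 KD and double KD. Blue and red points passed p 0.01 (dashed line) toward the distal and the proximal site, 26, 10 and 63 in all, and TSPAN3 and DPP9 stand highest in double KD.

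By p-value, DPP9, KBTBD6 and RRP7A came first among the shifts toward the distal site in double KD. In DPP9, a peptidase that restrains the NLRP1 inflammasome (ENSG00000142002, chr19:4674341-4724673), the ratio of proximal to distal use was 4.77-fold lower in double KD. Its logAPAR was −1.56 ± 0.17 (SE) in double KD (adjusted p 8.15e-17 in the deposited APAlog table), 0.00652 ± 0.194 in HNRNPC KD and −0.206 ± 0.187 in PABPC4 KD. The interval of double KD, −1.9 to −1.23, did not overlap those of the single KDs, which both included 0. KBTBD6, a substrate adaptor of a cullin-3 ubiquitin ligase (ENSG00000165572, chr13:41127569-41132802), shifted 4.7-fold in double KD, with a logAPAR of −1.55 ± 0.243 (adjusted p 7.03e-08, APAlog). Its values were −0.196 ± 0.241 in HNRNPC KD and −0.56 ± 0.232 in PABPC4 KD.

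RRP7A, a ribosomal RNA processing factor (ENSG00000189306, chr22:42508344-42519796), shifted both without and with the PABPC4 guide. Its logAPAR was −1.05 ± 0.236 in HNRNPC KD (adjusted p 0.0041, APAlog), 0.01 ± 0.281 with the PABPC4 guide alone and −1.58 ± 0.258 in double KD (adjusted p 2.99e-07, APAlog). The difference between double KD and PABPC4 KD, in which the control cancels, was −1.59 ± 0.381 (adjusted p 0.0103, normal test over all shared pairs). The long form of RRP7A is annotated with a 3′ UTR of 4569 nt.

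In DSTYK, a dual-specificity protein kinase (ENSG00000133059, chr1:205142505-205211702), logAPAR was −0.908 ± 0.165 in double KD (adjusted p 9.19e-06, APAlog), against 0.0328 ± 0.16 in HNRNPC KD and −0.0864 ± 0.158 in PABPC4 KD. KIAA2013 (ENSG00000116685, chr1:11919591-11926428) fell by 0.595 on the natural log scale in double KD (SE 0.122, adjusted p 0.000133, APAlog), with −0.0386 ± 0.124 and 0.115 ± 0.117 in the single KDs. P3H4, a component of the complex that modifies collagen in the endoplasmic reticulum (ENSG00000141696, chr17:41801947-41812604), had −1.19 ± 0.255 in double KD (adjusted p 0.000391, APAlog), −0.0997 ± 0.217 in HNRNPC KD and 0.124 ± 0.236 in PABPC4 KD. In each of these 3 genes the single KDs had intervals that included 0, and the double KD interval did not overlap either of them.

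The remaining distal shifts named here were TFDP2, a partner of E2F transcription factors, at −2.37 ± 0.536 (adjusted p 0.0011, APAlog), AC093012.1 (ENSG00000198001, named IRAK4 in release 44, a kinase of Toll-like receptor signalling) at −1.54 ± 0.358 (adjusted p 0.00174, APAlog), and ENTPD4, a nucleotide-hydrolysing enzyme of the Golgi, at −0.913 ± 0.218 (adjusted p 0.00251, APAlog). The Wald error sets a lower limit on the normalised reads of each site in both groups, which was 34.6 for DPP9 in double KD and 3.47 for TFDP2, and TFDP2 was the least precise of these genes. MTRNR2L12, a nuclear copy of mitochondrial 16S ribosomal RNA sequence, fell in HNRNPC KD (−0.911 ± 0.162, adjusted p 1.86e-05, APAlog) and in double KD (−0.673 ± 0.163, adjusted p 0.0032, APAlog). MTRNR2L12 has near-identical copies with which reads may be shared, which was not tested, so its values are uncertain.

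**Figure D3:**
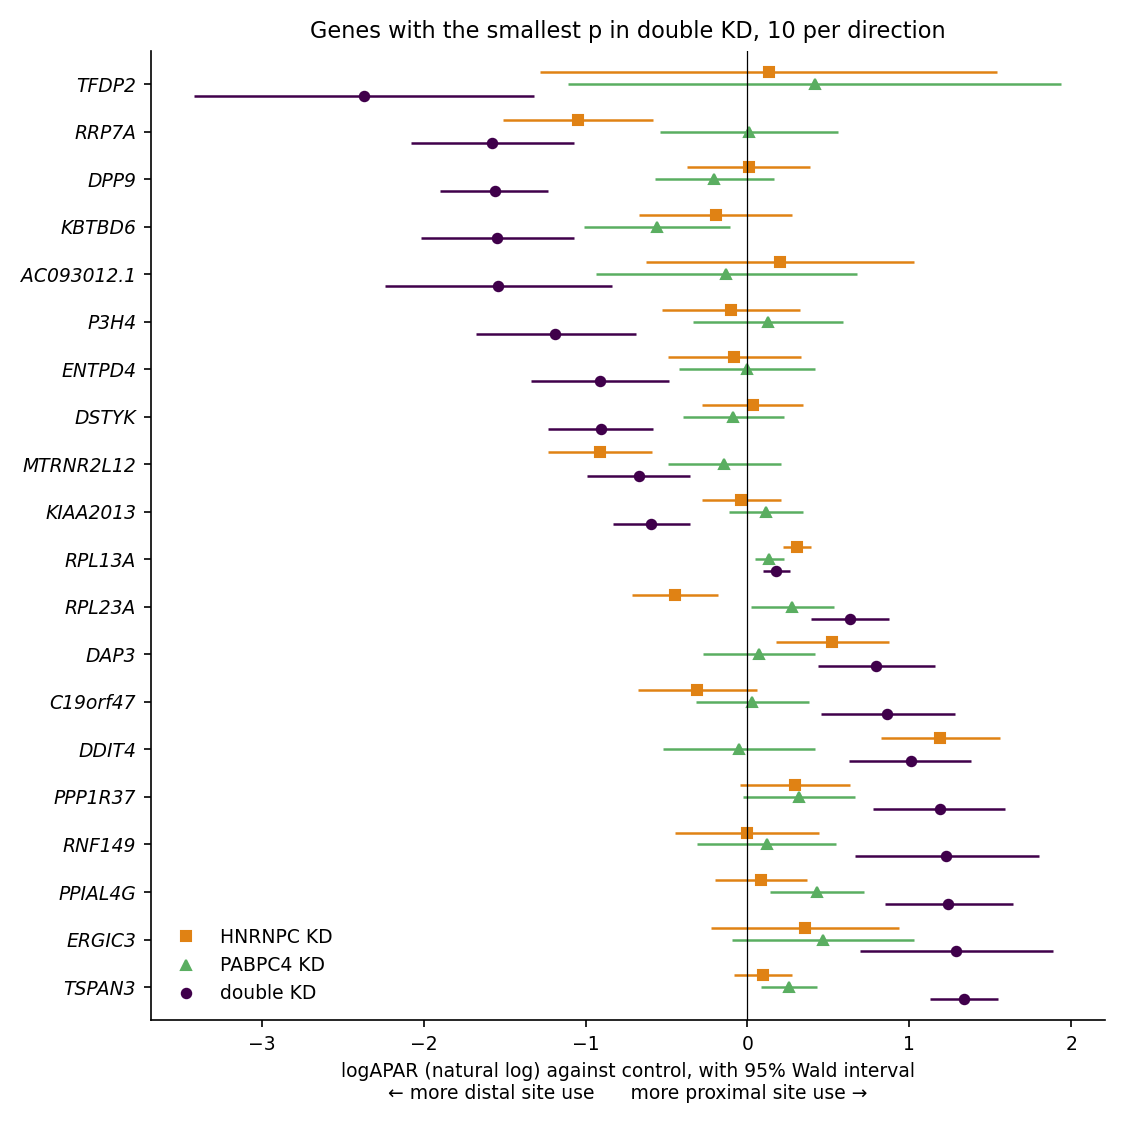
Points give logAPAR (natural log) against control with 95% Wald intervals in HNRNPC KD (squares), PABPC4 KD (triangles) and double KD (circles), for the 10 genes per direction with the smallest p in double KD. The double KD intervals of the 20 genes exclude 0, whereas RRP7A, MTRNR2L12, DDIT4, DAP3, RPL23A and RPL13A alone have an HNRNPC KD interval that also excludes 0.

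The smallest p among shifts toward the proximal site in double KD was that of TSPAN3, a member of the tetraspanin family of membrane scaffolds (ENSG00000140391, chr15:77041404-77083984). Its ratio of proximal to distal use was 3.81-fold higher in double KD, with a logAPAR of 1.34 ± 0.107 (adjusted p 3.17e-32, APAlog). The value was 0.0969 ± 0.091 in HNRNPC KD and 0.257 ± 0.0884 in PABPC4 KD (p 0.00362, adjusted p 0.951, APAlog). TSPAN3 was also among the better covered genes, with at least 87.8 normalised reads per site in double KD. PPP1R37, a regulatory subunit of protein phosphatase 1 (ENSG00000104866, chr19:45091396-45148077), had 1.19 ± 0.208 in double KD (adjusted p 3.29e-06, APAlog), 0.294 ± 0.174 in HNRNPC KD and 0.32 ± 0.176 in PABPC4 KD. A retained-intron transcript supplies the distal end of PPP1R37.

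DDIT4, a stress-induced inhibitor of mTORC1 (ENSG00000168209, chr10:72273919-72276036), moved with loss of HNRNPC whether or not the PABPC4 guide was present. Its logAPAR was 1.19 ± 0.188 in HNRNPC KD (adjusted p 2.64e-07, APAlog), −0.052 ± 0.241 in PABPC4 KD, against 1.01 ± 0.192 in double KD (adjusted p 2.85e-05, APAlog). In double KD minus PABPC4 KD it was 1.06 ± 0.308 (p 0.000593, adjusted p 0.0795 over all shared pairs, normal test). DAP3, a GTP-binding protein of the mitochondrial ribosome, was likewise above 0 in the comparisons that include the HNRNPC guide, with 0.525 ± 0.179 in HNRNPC KD, 0.0734 ± 0.176 in PABPC4 KD, against 0.796 ± 0.184 in double KD (adjusted p 0.00167, APAlog). In DAP3 the value of HNRNPC KD passed p 0.01 (p 0.00337) but not the adjusted p (0.254, APAlog).

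RNF149, a RING-type ubiquitin ligase (ENSG00000163162), had 1.23 ± 0.29 in double KD (adjusted p 0.00194, APAlog), with −0.00464 ± 0.227 and 0.12 ± 0.219 in the single KDs. ERGIC3, a protein that cycles between the endoplasmic reticulum and the Golgi, had 1.29 ± 0.306 in double KD (adjusted p 0.0022, APAlog), and its distal end is that of a retained-intron transcript. C19orf47 had 0.865 ± 0.21 in double KD (adjusted p 0.0032, APAlog), against −0.309 ± 0.186 in HNRNPC KD. PPIAL4G, a copy of the cyclophilin A gene, had 1.24 ± 0.203 in double KD (adjusted p 2.93e-07, APAlog). Whether its reads are shared with related copies was not tested, and PPIA, also among these genes, had −0.0288 ± 0.127 in double KD and −0.418 ± 0.138 in HNRNPC KD (p 0.00249, adjusted p 0.214, APAlog).

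Some ribosomal protein genes shifted toward the proximal site in double KD. Of 15 cytosolic ribosomal protein genes and pseudogenes, 4 passed p 0.01 in double KD, all toward the proximal site and 2 of them pseudogenes, beside 4.33% of all pairs called and 1.86% called toward the proximal site. In HNRNPC KD 3 passed, 1 toward the distal and 2 toward the proximal site. Of the 15 double KD values 3 were below 0, and the median of the list was 0.446 beside 0.00853 over all pairs. RPL23A had −0.447 ± 0.135 in HNRNPC KD (p 0.000908, adjusted p 0.118, APAlog), 0.277 ± 0.131 in PABPC4 KD, against 0.632 ± 0.123 in double KD (adjusted p 4.11e-05, APAlog). Its values in HNRNPC KD and double KD had opposite signs. RPL13A had the smallest SE of the 1172 genes with one in double KD, and small shifts: 0.307 ± 0.0445, 0.135 ± 0.0454 and 0.179 ± 0.0438 in HNRNPC KD, PABPC4 KD and double KD. A retained-intron transcript supplies the distal end of RPL13A, which is not the outermost protein-coding end. The other genes called were the pseudogenes RPLP0P2 (1.07 ± 0.279, adjusted p 0.00905, APAlog) and RPL12P38 (2.54 ± 0.924, p 0.00602, adjusted p 0.166, APAlog). Ribosomal protein genes have many near-identical copies, so reads at these sites may be shared, and both pseudogenes have distal ends followed by A-rich sequence.

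In the other functional lists few genes passed, and these counts are read against 4.33% of all pairs called in double KD, 2.48% toward the distal and 1.86% toward the proximal site. With so few calls per list, no direction is read from them. Of 53 zinc finger genes, 3 passed p 0.01 toward the distal site in double KD (ZNF557, ZFAND3 and ZNF721, the last named after its values were seen). The value was −1.94 ± 0.48 for ZNF557 (adjusted p 0.0041, APAlog) and −0.945 ± 0.245 for ZFAND3 (adjusted p 0.00804, APAlog), and the median of the group was −0.0337. Of 42 vesicle trafficking genes, 3 passed toward the proximal site (ERGIC3, RAB31 and VPS13D, the last likewise named afterwards), with a group median of 0.135 and 0.678 ± 0.198 for RAB31, a small GTPase of endosomes (adjusted p 0.0313, APAlog). Of 38 ubiquitin and proteasome genes, RNF149 and PSMD2 passed toward the proximal site. Of 27 cell cycle genes, CCNB1, the mitotic cyclin B1, shifted toward the distal site (−0.981 ± 0.277, adjusted p 0.022, APAlog) and SPC25, a kinetochore subunit, toward the proximal site (1.23 ± 0.448, p 0.00587, adjusted p 0.165, APAlog). Of 20 splicing factors and RNA-binding proteins, DDX51 alone passed (−1.33 ± 0.365, adjusted p 0.017, APAlog), and SF3B1 had −0.857 ± 0.519. Of 3 genes of the cleavage and polyadenylation machinery, 0 passed p 0.01 in any table (APAlog), with 1 at an unadjusted p under 0.05 in HNRNPC KD and 1 in PABPC4 KD. CPSF4 had −0.534 ± 0.365 and CSTF1 −0.362 ± 0.83 in double KD.

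Further lists gave 1 or 2 calls each in double KD. ETF1, the translation termination factor eRF1, was the 1 gene called of 13 translation factors and tRNA synthetases, with −0.929 ± 0.319 in HNRNPC KD and −1.04 ± 0.318 in double KD (adjusted p 0.0484, APAlog), while LARS1 had 0.447 ± 0.294. CHD3, a nucleosome remodeller, was the 1 gene called of 19 chromatin regulators (−0.754 ± 0.206, adjusted p 0.0151, APAlog), and SMARCA4 had 0.204 ± 0.123. COX18 was called of 22 mitochondrial genes (−2.08 ± 0.766, adjusted p 0.175, APAlog), and TIMM8A had −1.35 ± 0.526. CLCN7 was called of 35 transporter genes (−0.975 ± 0.287, adjusted p 0.0345, APAlog), and the glucose transporter SLC2A3 had −0.446 ± 0.177. Of 33 kinase and phosphatase genes, PPP1R37 went toward the proximal and MAPK13 toward the distal site. Of 22 small GTPase and G-protein genes, TBC1D1 went toward the distal (−1.37 ± 0.357, adjusted p 0.00844, APAlog) and GNAI2 toward the proximal site. Of 28 cytoskeleton, adhesion and matrix genes, TSPAN3 and TIMP3 went toward the proximal site. PPIAL4G was the 1 gene called of 23 chaperone genes. In all, 387 of the 1173 genes were in at least 1 of the 15 lists.

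Several genes passed p 0.01 in HNRNPC KD as well as in double KD. CARHSP1, an RNA-binding protein that stabilises TNF mRNA, shifted by −0.458 ± 0.137 in HNRNPC KD and by −0.446 ± 0.136 in double KD (adjusted p 0.113 and 0.0462, APAlog). In the same order, SPECC1L had −1.19 ± 0.413 and −1.41 ± 0.402, CHD3 −0.637 ± 0.213 and −0.754 ± 0.206, PGAP6 −0.999 ± 0.381 and −1.06 ± 0.369, and MAPK13 −0.662 ± 0.248 and −0.624 ± 0.231. PLIN2, which coats lipid droplets, went the other way with 0.407 ± 0.128 and 0.354 ± 0.125. Of these 6 genes, CARHSP1, SPECC1L and CHD3 passed an adjusted p of 0.05 in double KD and none did in HNRNPC KD. Both values of a gene rest on the same control libraries, so their likeness is not independent agreement. Subtracting PABPC4 KD from double KD takes the control out. After that step all 6 genes kept their sign, but none passed p 0.01. By the normal test, p ranged from 0.0479 (SPECC1L) to 0.277 (PLIN2), with an error that counts the shared control as noise. TNFRSF1B, a receptor of TNF (ENSG00000028137, chr1:12166991-12209228), shifted toward the proximal site in HNRNPC KD (0.71 ± 0.187, adjusted p 0.0373, APAlog) and had −0.327 ± 0.196 in double KD. The difference between these values was −1.04 ± 0.271 (adjusted p 0.0301, normal test over all shared pairs).

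Calls in PABPC4 KD were few and none passed the adjusted p. WIPF1, a regulator of actin assembly, had the smallest p, with 1.99 ± 0.587 in PABPC4 KD (p 0.000683, adjusted p 0.742, APAlog), 0.336 ± 0.59 in HNRNPC KD and 0.952 ± 0.544 in double KD. The lower limit on its normalised reads per site in PABPC4 KD was 2.9. PPIF, the mitochondrial cyclophilin D, and FBLIM1, a filamin-binding adhesion protein, were the genes shifted toward the distal site, with −0.975 ± 0.365 and −0.972 ± 0.371. NUDT16, a hydrolase that acts on capped RNA, passed p 0.01 in both single KDs (2.11 ± 0.772 and 2.53 ± 0.883), whereas double KD gave 0.251 ± 0.583. The lower limit for NUDT16 was 1.28 reads per site in PABPC4 KD.

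To separate the effect of HNRNPC loss from the control libraries, double KD was compared with PABPC4 KD. In this difference 20 of 1172 genes passed p 0.01, with 12 below 0 and 8 above it, against backgrounds of 1.9%, 1.02% and 0.875% of 4688 shared pairs. The error adds both Wald variances and so counts the shared control as noise. As an alternative, the control's share was set at 0.5 of the smallest Wald variance of the pair and removed from the error. With it removed 61 genes passed, but no background was counted with that error. Past an adjusted p of 0.05 were 5 genes, DPP9 (−1.36 ± 0.253), TSPAN3 (1.08 ± 0.139), RRP7A, KIAA2013 (−0.71 ± 0.169) and P3H4 (−1.31 ± 0.348). They were 0.427% of the genes, beside 0.555% of the 4688 shared pairs. Because the control cancels from this difference, it shares no library with HNRNPC KD against control. Its sign was that of HNRNPC KD in 20 of the 26 genes called there (76.9%), 12 of 15 toward the distal and 8 of 11 toward the proximal site. The same held for 92 of 117 of all shared pairs called in HNRNPC KD (78.6%). In the 26 genes the shift had a median size of 0.844 in HNRNPC KD, and the difference had a median of 0.337 toward the same site. RRP7A, DDIT4 and DAP3, 3 of the 26 genes, passed p 0.01 in both with the same sign, beside 20 of the 117 shared pairs. PABPC4 KD called 10 genes, and 6 of them had the same sign in double KD minus HNRNPC KD (60%), beside 24 of 43 of all shared pairs (55.8%).

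**Figure D4:**
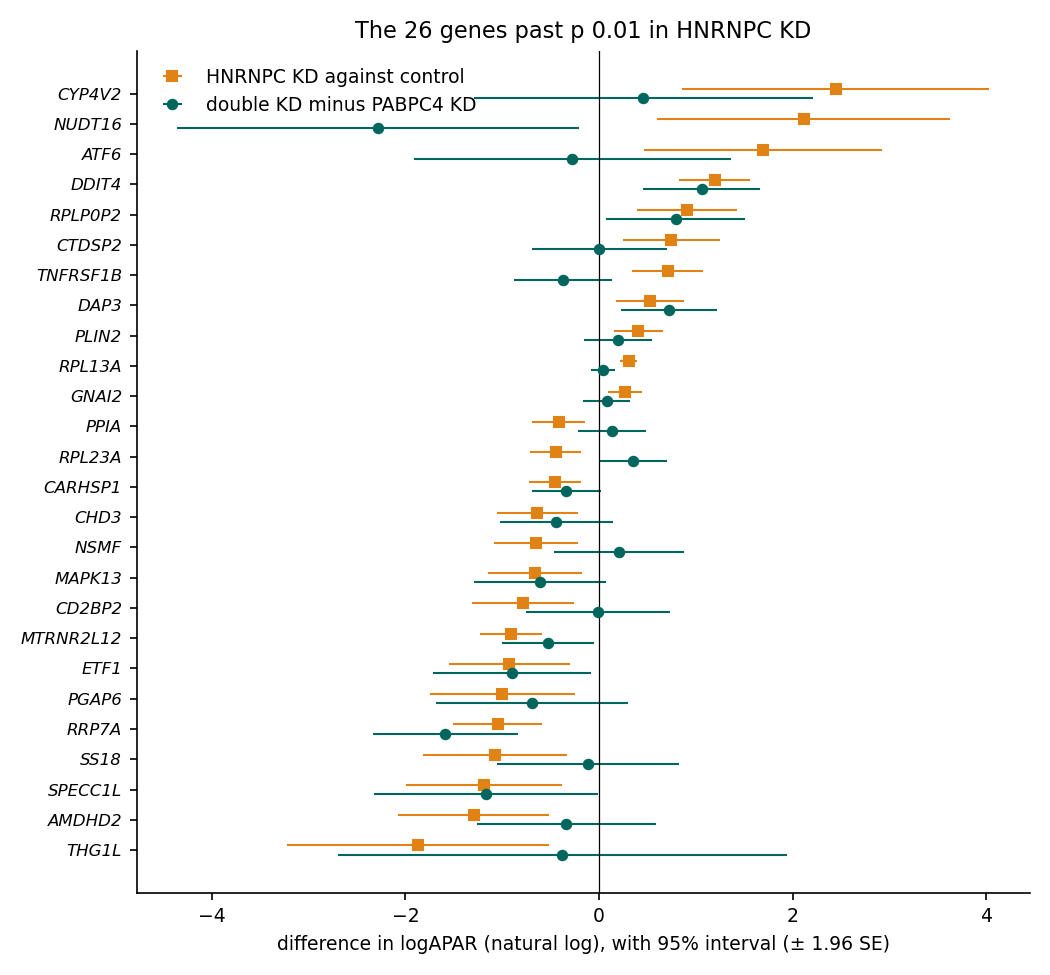
For the 26 genes past p 0.01 in HNRNPC KD, squares give logAPAR in HNRNPC KD against control and circles the difference of double KD and PABPC4 KD, on the natural log scale with 95% intervals. Of the circles 20 lie on the same side of 0 as their square, and ATF6, NSMF, NUDT16, PPIA, RPL23A and TNFRSF1B lie on the other side.

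Double KD was compared with HNRNPC KD to ask what loss of PABPC4 adds when HNRNPC is already low. In this difference 20 of 1172 genes passed p 0.01, with 12 below 0 and 8 above it, against backgrounds of 1.56%, 1.04% and 0.512% of 4691 shared pairs. Removing the set share of the control from the error gave 33 genes, again without a background counted with that error. Past an adjusted p of 0.05 were 8 genes, with TSPAN3 (1.24 ± 0.14), RPL23A (1.08 ± 0.182), PPIAL4G (1.16 ± 0.249) and C19orf47 (1.17 ± 0.281) higher in double KD, and DPP9 (−1.57 ± 0.258), DSTYK (−0.941 ± 0.23), KBTBD6 (−1.35 ± 0.342) and TNFRSF1B lower. The 8 genes were 0.683% of those tested, beside 0.469% of the 4691 shared pairs. TSPAN3 and DPP9 passed the adjusted p in both differences.

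Adding up both single KDs and subtracting the total from double KD gave a departure past p 0.01 in 15 of 1172 genes, 10 below and 5 above the sum, against backgrounds of 1.05%, 0.683% and 0.363% of 4688 shared pairs. With the set share of the control removed 26 genes passed, likewise without a background counted with that error. TSPAN3 lay 0.984 above the sum (adjusted p 1.39e-05, normal test over all shared pairs) and DPP9 lay −1.36 from it (adjusted p 0.0299), and these were the 2 genes past an adjusted p of 0.05. They were 0.171% of the genes, beside 3 of the 4688 shared pairs (0.064%). The next smallest p-values among the named genes were those of RPL23A, 0.802 above the sum (p 0.000348, adjusted p 0.181), C19orf47, 1.14 above it (p 0.000587, adjusted p 0.206), TNFRSF1B, −1.09 from it (p 0.000644, adjusted p 0.206), RPL13A, −0.263 from it (p 0.000658, adjusted p 0.206), and NUDT16, −4.39 from it (p 0.000793, adjusted p 0.232). Unlike the differences above, this departure still holds the control.

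Genes with A-rich sequence just after the distal end had higher values in double KD. An end counted as A-rich where its next 20 nt held at least 6 A in a row or at least 12 A in total. Such sequence followed 27 of the 1028 placed ends (2.63%), against 3.45% of all protein-coding ends. Of these 27 genes, 6 passed p 0.01 in double KD (22.2%), all 6 toward the proximal site, compared with 48 of the 1001 other genes (4.8%), of which 29 shifted toward the distal and 19 toward the proximal site. Their median logAPAR was 0.738 in double KD, with 20 of 27 above 0 and a range of −1.65 to 2.54, beside −0.0288 in the other genes. In HNRNPC KD the medians were 0.116 and −0.0216, and in PABPC4 KD 0.257 and 0.00989. The differences in which the control cancels had medians above 0 in the 27 genes, 0.43 in double KD minus PABPC4 KD (25 of 27 above 0) and 0.46 in double KD minus HNRNPC KD (20 of 27). Both differences hold the same double KD values, so they are not separate support. Single genes past p 0.01 were few in these differences, 1 and 2 of 27 (3.7% and 7.41%), beside 13 of the 1001 other genes (1.3%) in each. Among the other shared pairs with a placed distal end, 90 had A-rich sequence after it, and 14 of these passed p 0.01 in double KD (15.6%), but in both directions, 6 toward the distal and 8 toward the proximal site, with a median of 0.173. TSPAN3, ERGIC3, PTK6, GNAI2 and RPLP0P2 are shown with the last 10 nt of the transcript in lower case and the next 20 nt of hg38 in capitals.
TSPAN3 (chr15:77041384-77041413, minus): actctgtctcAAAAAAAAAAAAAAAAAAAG
ERGIC3 (chr20:35545395-35545424, plus): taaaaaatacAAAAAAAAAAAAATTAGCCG
PTK6 (chr20:63528405-63528434, minus): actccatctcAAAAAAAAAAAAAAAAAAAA
GNAI2 (chr3:50259336-50259365, plus): atgtagaaagAAAAAAAATACCGAGAACTG
RPLP0P2 (chr11:61639440-61639469, plus): ccatctctatAAAAAATTAAAATTAAAAAA
The same window in KBTBD6, RRP7A and DSTYK, which shifted toward the distal end, held no A-rich stretch after the end. That was so at 1001 of the 1028 placed ends, among them 19 genes called toward the proximal site, so these 3 windows are examples only.
KBTBD6 (chr13:41127549-41127578, minus): ggtaccagaaCTTATGCTTCCTGACTTTTT
RRP7A (chr22:42508324-42508353, minus): atgagaagaaTTTATAGAACCTTTTTTTTT
DSTYK (chr1:205142485-205142514, minus): attaacgtttTAGGTTTCTATCTGTTTGGT

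Of these 6 genes PTK6 and RPL12P38 are outside the rule for named genes and are given because of their sequence, after their values were seen. PTK6, a non-receptor tyrosine kinase, had 1.68 ± 0.556 in double KD (p 0.00249, adjusted p 0.0905, APAlog), 0.399 ± 0.585 in HNRNPC KD and 0.73 ± 0.545 in PABPC4 KD. GNAI2, a G-protein subunit that inhibits adenylyl cyclase, had 0.263 ± 0.0896 in HNRNPC KD, 0.202 ± 0.0878 in PABPC4 KD, against 0.281 ± 0.0876 in double KD (adjusted p 0.0567, APAlog), with intervals that overlap. Oligo(dT), which starts these libraries, can bind internal runs of A as well as a tail. Its part in the shifts was not tested, and whether proximal sites are A-rich could not be read in this build.

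**Figure D5:**
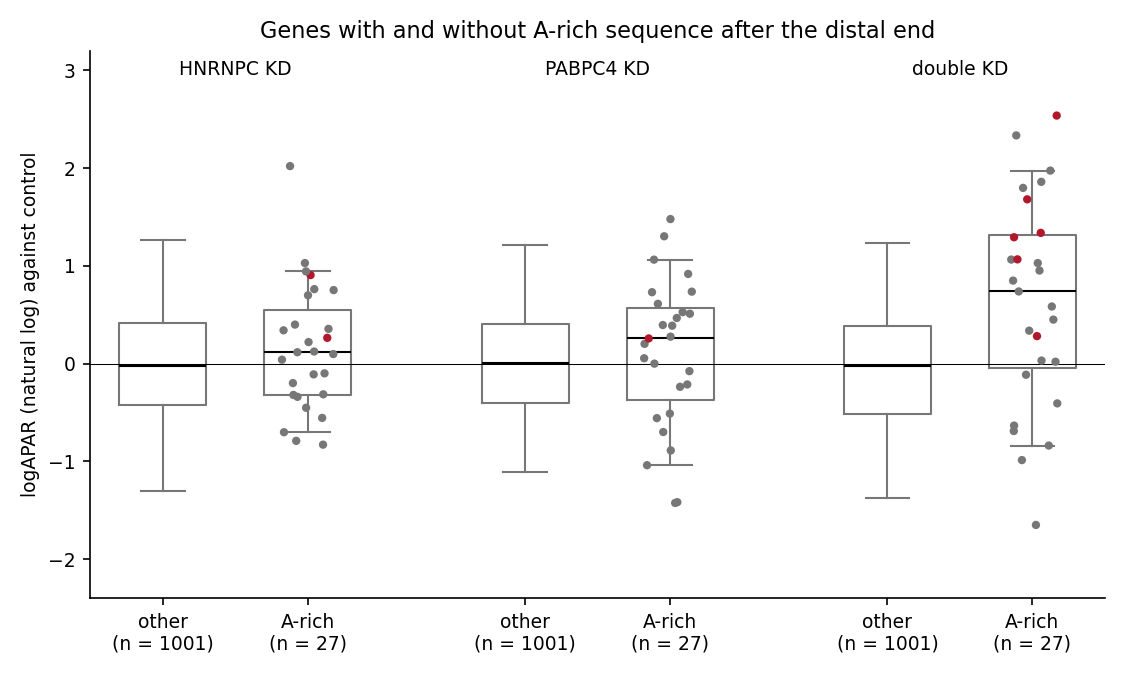
Boxes give the quartiles and the median of logAPAR (natural log) in each comparison with control, with whiskers from the 5th to the 95th percentile, for placed genes with A-rich sequence after the distal end (27) and the others (1001). Points are the 27 genes, red where p 0.01 was passed, and their median was 0.738 in double KD, 0.116 in HNRNPC KD and 0.257 in PABPC4 KD.

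Several distal ends carried the letters of the tail of an Alu, a primate repeat that commonly ends in TCTC and a run of A. The following search was chosen after these sequences and values were seen, and no repeat annotation was used. The letters TCTCAAAAAA, from 30 nt before to 20 nt after the end, were present on the transcribed strand at 16 of 1028 placed ends, against 0.387% of all protein-coding ends, and on the other strand at 0. Of these 16 genes, 7 passed p 0.01 in double KD, beside 47 of the 1012 genes without the letters (4.64%). Of the 7, 6 shifted toward the proximal site (TSPAN3, PPP1R37, C19orf47, LYRM4, MTG2 and PTK6) and NUDC toward the distal site. Of the 47, 28 shifted toward the distal and 19 toward the proximal site. In double KD 14 of 16 had a value above 0, with a median of 0.911, beside −0.0294 in the 1012 genes without the letters. The median was −0.0609 in HNRNPC KD and 0.354 in PABPC4 KD. In both differences from a single KD 15 of 16 genes were above 0, with medians of 0.85 for double KD minus PABPC4 KD and 1.04 for double KD minus HNRNPC KD. Both differences hold the double KD values that were seen before the letters were chosen, so they are not separate support. Further genes with these letters, which like LYRM4, MTG2 and NUDC are named only for them, included TSG101, HARBI1, YARS2, USE1, SLC30A3, WDR82, C1QTNF2 and POLR2J2. In the 39 further pairs of 29 genes listed in all 3 tables with these letters at a placed distal end, the median in double KD was 0.635, 29 of 39 were above 0, and 6 passed p 0.01, all toward the proximal site. Over all pairs in double KD 4.33% passed, and 1.86% passed toward the proximal site. Pairs of the same gene can share a site, and these values come from the same double KD libraries, so they are not separate support.

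LYRM4, which serves iron-sulfur cluster assembly, had 1.35 ± 0.378 in double KD (adjusted p 0.0207, APAlog), and USE1 had 0.848 ± 0.489. NUDC, a dynein-associated protein, was the called gene that went the other way, at −0.736 ± 0.219 (adjusted p 0.0375, APAlog), and its end also holds AATAAA within 40 nt. In PPP1R37, shown above, and in C19orf47 and MTG2 the A run, in capitals below, lies before the end.
C19orf47 (chr19:40319536-40319565, minus): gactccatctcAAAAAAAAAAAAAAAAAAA
MTG2 (chr20:62202738-62202767, plus): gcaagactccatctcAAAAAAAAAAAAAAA
MTG2, a GTPase of mitochondrial ribosome assembly, had 0.871 ± 0.275 in double KD (p 0.00153, adjusted p 0.0616, APAlog), −0.0216 ± 0.271 in HNRNPC KD and 0.533 ± 0.249 in PABPC4 KD.

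Calls were also counted by other features of the distal end. Of the 164 ends without a signal hexamer 15 were called in double KD (9.15%), 6 toward the distal and 9 toward the proximal site, compared with 39 of 864 (4.51%) with one. Distal ends of transcripts that are not annotated as protein-coding were called at 12 of 109 (11%), against 42 of 919 (4.57%). With a run of at least 5 T before the distal end, 19 of 389 were called in double KD (4.88%), and without one 35 of 639 (5.48%), with medians of −0.0612 and 0.00733. These shares are descriptions, the classes overlap, and their part in the shifts was not tested.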

How the data were processed

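RNA 3′ ends of 8 MDA-MB-231 CRISPRi libraries were sequenced with QuantSeq REV. Per the labels and methods, the authors quantified Gencode 33 transcript ends with Salmon 0.14.1 (UMI-tools is also named, build hg38) and fitted pairs of sites with APAlog, a multinomial logistic regression. Deposited values are logAPAR, a natural log (ln) ratio, with a p-value and a Benjamini-Hochberg adjusted p-value for each pair, KD against control. The tables hold no values per sample, so these comparison values of the authors were used and nothing was refitted. The log base was checked at 678 genes with several sites, where natural log fitted better than log2 in 100%.

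SE was |logAPAR| divided by the normal quantile of p (scipy 1.17.1). Differences between tables used normal tests over all shared pairs, with summed variances as an upper bound, without TSG101, whose p gave no SE. The script was tested on simulated data. Distal ends were placed with Gencode 44 where transcript versions matched. Named genes were up to 10 per direction by p in double KD, up to 4 per direction in each single KD, up to 3 per direction in each difference, genes past p 0.01 in 2 or more tables, the first 2 of each functional list by p in double KD, and 6 genes the study singles out, of which 0 were members. Members and lists were chosen with earlier results of these data known. Alternatives were other thresholds and errors. Some items are not reported here.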

Additional observations from a re-analysis of the deposited data

Results flagged for a closer look

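Effects in double KD differed from the sum of the single KDs, by a normal test adjusted over all shared pairs, in TSPAN3 and DPP9. TSPAN3 lay 0.984 above the sum (p 2.97e-09, adjusted p 1.39e-05), toward the proximal site. DPP9 lay −1.36 from the sum (p 1.91e-05, adjusted p 0.0299), toward the distal site. No outliers within groups could be looked for, because the tables carry no values per library.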

How the results depend on the processing

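No paired analysis was possible because values per library are not in these tables, and for that reason no replicate could be left out either. Of 55 alternative values for counts, shares and medians, 33 stayed within the allowed range and 22 moved. Within that range the medians, which are near 0, changed sign: in HNRNPC KD from −0.0216 to 0.0188 (weighted mean), 0.00242 (SE below the median of the table) and 0.00745 (1 pair in the table itself), and in double KD from −0.028 to 0.0166 (1 pair in the table itself). The share of HNRNPC KD calls toward the distal site went from 57.7% to 40% at an adjusted p of 0.05, which left 5 genes. Changes of threshold move counts by construction. An adjusted p of 0.05, p 0.001 and p 0.05 gave 5, 8 and 92 genes in HNRNPC KD, 0, 1 and 51 in PABPC4 KD, and 40, 37 and 126 in double KD. The 1 gene of PABPC4 KD at p 0.001 went toward the proximal site, so that the share toward the distal site was 0. In the same order the counts were 5, 7 and 59 in double KD minus PABPC4 KD, 8, 10 and 35 in double KD minus HNRNPC KD, and 2, 7 and 34 for the departure from the sum. Removing a set share of the control (0.5 of the smallest variance) from the error gave 61, 33 and 26 genes at p 0.01. No background was counted with that error. Of 109 calls of named genes, 52 stayed at an adjusted p of 0.05 and 63 at p 0.001. Among alternatives chosen after seeing the data, the count of 6 genes with A-rich sequence after the distal end that shifted toward the proximal site was 6 with a run of 6 A, with at least 12 A or with at least 10 A, 9 with a run of 8 A within 20 nt on either side of the end, and 4 without pseudogenes and copy families. The depth per library is unknown, and a change of median size was below the counting error of most genes.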
